A study of Homo sapiens with 6 samples.

Results

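The NF-kB transcription factor subunits and the genes that feed back on them were followed in ACHN, a line of human renal cancer cells, in which OTUD1 had been knocked down by siRNA (small interfering RNA). The set was chosen by gene symbol and held 10 genes of the 58735 rows of the count table. They were the subunits NFKB1, RELA, NFKB2 and RELB and the inhibitors NFKBIA and NFKBIE. The others were TNFAIP3, the gene of a ubiquitin-editing enzyme, its partner TNIP1, and the receptor-complex genes BIRC3 and TRAF1. The OTUD1 siRNA group and the control siRNA group had 3 libraries each, numbered 1 to 3, and all of them were ACHN cells that had been transfected. All OTUD1 siRNA libraries carry the same siRNA label. Loss of OTUD1 and other effects of that siRNA therefore cannot be told apart in this design. OTUD1 encodes a deubiquitinase, an enzyme that takes ubiquitin off other proteins. Nothing in the labels names separate cultures behind the replicate numbers, so p-values describe the spread between these libraries, which may be technical.

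NF-kB dimers are held in the cytoplasm by IκB proteins. In the canonical route, cytokine receptors such as the TNF receptor build ubiquitin chains on their signalling complex, an IκB kinase marks IκB for destruction, and dimers of RelA with p50 (from NFKB1) enter the nucleus. In the non-canonical route, the kinase NIK (MAP3K14) drives the processing of p100 (NFKB2) to p52, the partner of RelB. Many of the genes switched on by these dimers encode brakes or amplifiers of the same pathway, among them NFKBIA, NFKBIE, TNFAIP3, BIRC3, NFKB2 and TRAF1, so their mRNAs are commonly read as a report of NF-kB activity. In renal carcinoma cells the pathway is known for survival signalling and chemokine production.

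The start-site windows of the genes with the largest fall, of the A20 gene TNFAIP3 and of TNIP1, the gene that rose, are shown to place the kB sites that NF-kB dimers recognise. Each window runs from 250 bases before to 50 bases after an annotated start (RefSeq, GRCh38.p14), 5′ to 3′ on the gene's strand. Capitals mark matches to the 10-base kB consensus on either strand. Every window shown holds a match. The windows of RELA and TRAF1, which also fell, hold none and are not shown. The first listed windows of TNIP1 and NFKB2 and the second of NFKB1 hold none either. BIRC3 lies at chr11:102317234-102317533 on the plus strand, NFKBIA at chr14:35404700-35404999 on the minus strand, TNFAIP3 at chr6:137867009-137867308 on the plus strand and the second listed start of TNIP1 at chr5:151080985-151081284 on the minus strand.
BIRC3: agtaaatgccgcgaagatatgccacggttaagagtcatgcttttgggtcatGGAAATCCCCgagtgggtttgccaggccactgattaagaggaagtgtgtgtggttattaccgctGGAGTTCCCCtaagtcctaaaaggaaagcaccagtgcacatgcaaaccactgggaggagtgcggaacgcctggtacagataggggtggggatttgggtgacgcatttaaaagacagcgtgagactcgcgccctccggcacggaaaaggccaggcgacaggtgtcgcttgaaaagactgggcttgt
NFKBIA: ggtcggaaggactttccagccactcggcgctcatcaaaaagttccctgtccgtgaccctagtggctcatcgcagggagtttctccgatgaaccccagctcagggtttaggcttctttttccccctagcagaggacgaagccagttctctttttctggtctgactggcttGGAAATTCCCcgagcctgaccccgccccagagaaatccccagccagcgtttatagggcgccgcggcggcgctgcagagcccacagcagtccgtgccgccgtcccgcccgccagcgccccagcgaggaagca
TNFAIP3: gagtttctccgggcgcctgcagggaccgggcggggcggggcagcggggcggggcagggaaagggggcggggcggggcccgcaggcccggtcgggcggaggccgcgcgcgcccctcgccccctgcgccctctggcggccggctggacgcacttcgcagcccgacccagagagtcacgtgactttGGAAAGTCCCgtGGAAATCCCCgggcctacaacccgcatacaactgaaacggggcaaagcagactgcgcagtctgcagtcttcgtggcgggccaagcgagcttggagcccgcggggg
TNIP1: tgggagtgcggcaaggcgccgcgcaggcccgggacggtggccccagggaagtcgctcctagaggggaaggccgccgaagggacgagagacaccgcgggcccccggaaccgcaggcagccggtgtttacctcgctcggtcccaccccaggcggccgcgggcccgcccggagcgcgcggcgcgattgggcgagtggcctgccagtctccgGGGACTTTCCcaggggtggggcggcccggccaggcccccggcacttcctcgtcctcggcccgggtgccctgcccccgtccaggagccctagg

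Of the 10 genes, 8 had a listed start site, 15 windows in all, and RELB and NFKBIE were not analysed here for kB matches. A kB match was present in 6 of these 8 genes (BIRC3, NFKBIA, TNFAIP3, TNIP1, NFKB1 and NFKB2), against 17.7% of the 10594 tested genes with a listed start. Per window, 7 of the 15 held a match, against 13.7% of the 15429 windows of tested genes and 11.3% of all 35116 windows. These 8 genes have more windows per gene than the tested genes do, which gives a gene more room for a match. They were also chosen as NF-kB genes, many of them known to be switched on by its dimers. The higher share of matches is therefore no independent result. TNFAIP3 carried a pair of matches beginning 67 and 55 bases before the start, and the second window of NFKB2 carried an overlapping pair and a further one. The sequence GGGACTTTCC occurred both in a TNIP1 window and in the third NFKB2 window. A match is a description of the letters and not a mapped binding site.

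**Figure D1:**
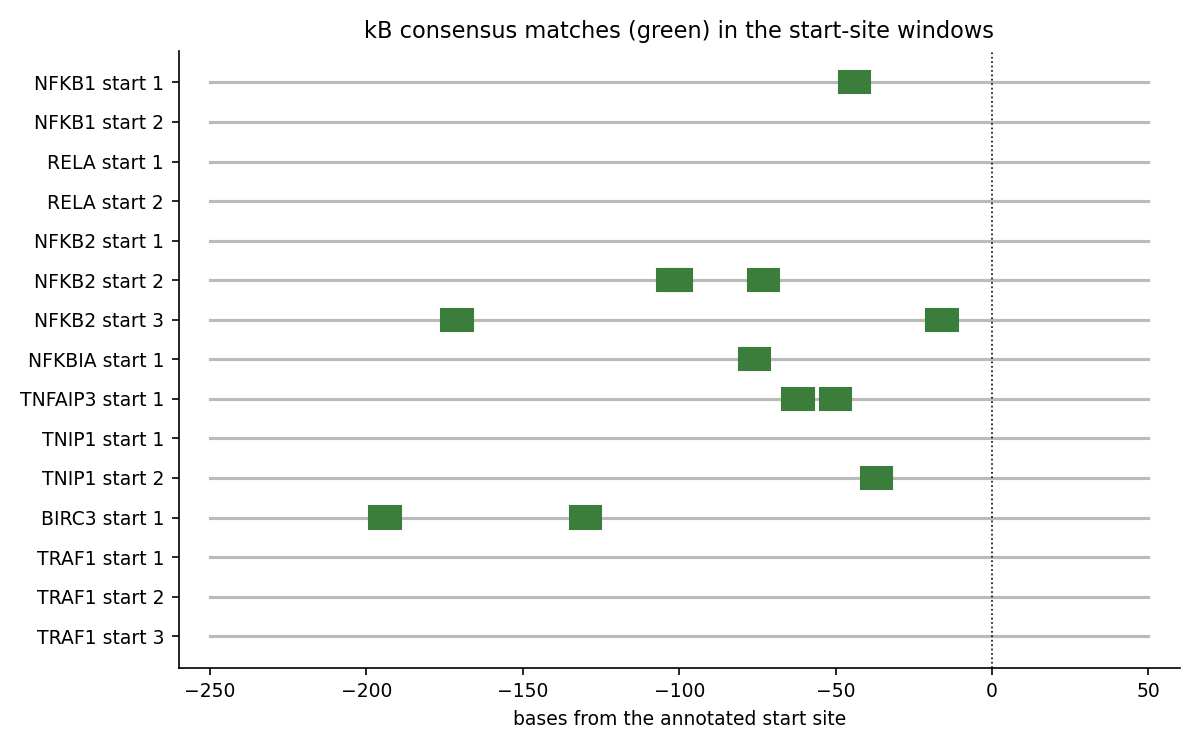
Matches to the kB consensus (green boxes, 10 bases wide, either strand) along the 15 start-site windows, in bases from the annotated start; 7 windows of 6 genes hold a match. The windows of RELA and TRAF1 hold none of these letters.

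Total counts per library were 17243433 to 21013530 in the OTUD1 siRNA group and 16753495 to 18993534 in the control group, and 15244 genes were tested. The siRNA target OTUD1 had 28, 17 and 25 counts in the OTUD1 siRNA libraries, against 61, 67 and 65 in the control libraries (edgeR log2 fold change -1.69 ± 0.24 SE, adjusted p = 4.37e-07). Markers of the renal epithelium were present (PAX8, PAX2, MET, KRT8 and KRT18), but not all of the list was. CDH6 was at 0 in every library, and CDH16 had means of 0.576 CPM after OTUD1 siRNA and 0.586 CPM in controls. LHX1 was also low, with means of 0.624 and 1.98 CPM. The summed level of 10 such markers was 3540 to 3660 CPM in OTUD1 siRNA libraries and 7070 to 7260 CPM in control libraries. Most of these sums came from KRT8 (means 1957 and 4112 CPM) and KRT18 (means 726 and 1604 CPM). Of 9 markers tested, 7 fell, among them PAX8 and MET by 1.57-fold each. EPCAM rose 1.10-fold and CDH16 was not called. Leukocyte markers summed to 3.38 to 4.01 CPM after OTUD1 siRNA and 3.19 to 5.02 CPM in controls, with PTPRC, CD3E and LYZ at 0 throughout, and fibroblast and endothelial markers to 5.26 to 6.75 CPM after OTUD1 siRNA and 3.58 to 5.61 CPM in controls. None of the 2 leukocyte genes and 1 fibroblast or endothelial gene with enough counts for the edgeR test was called. The part of these markers in the NF-kB results was not tested. Values below are CPM (counts scaled to library size after TMM normalization), a positive log2 fold change means higher after OTUD1 siRNA, and a gene was called at a Benjamini-Hochberg adjusted p under 0.05 in edgeR's quasi-likelihood test over all tested genes.

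Transcripts of 8 of the 10 genes fell after OTUD1 siRNA, TNIP1 rose slightly and RELB was not called. BIRC3 and NFKBIA fell the most, by more than 1 on the log2 scale, and the other 6 that fell did so by 0.23 to 0.72. Over all tested genes, 31.1% were called lower, 29.3% were called higher and 60.4% in either direction, so a call by itself was common in these libraries. The median log2 fold change of the 10 genes was -0.50, against 0.01 over all genes tested. All 10 genes passed the filter on low counts. The library values of the groups did not overlap for 9 of the 10 genes, against 64.5% of all tested genes (33% lower, 31.5% higher). Fewer cells expressing a gene and less RNA per cell cannot be told apart in these bulk samples.

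**Figure D2:**
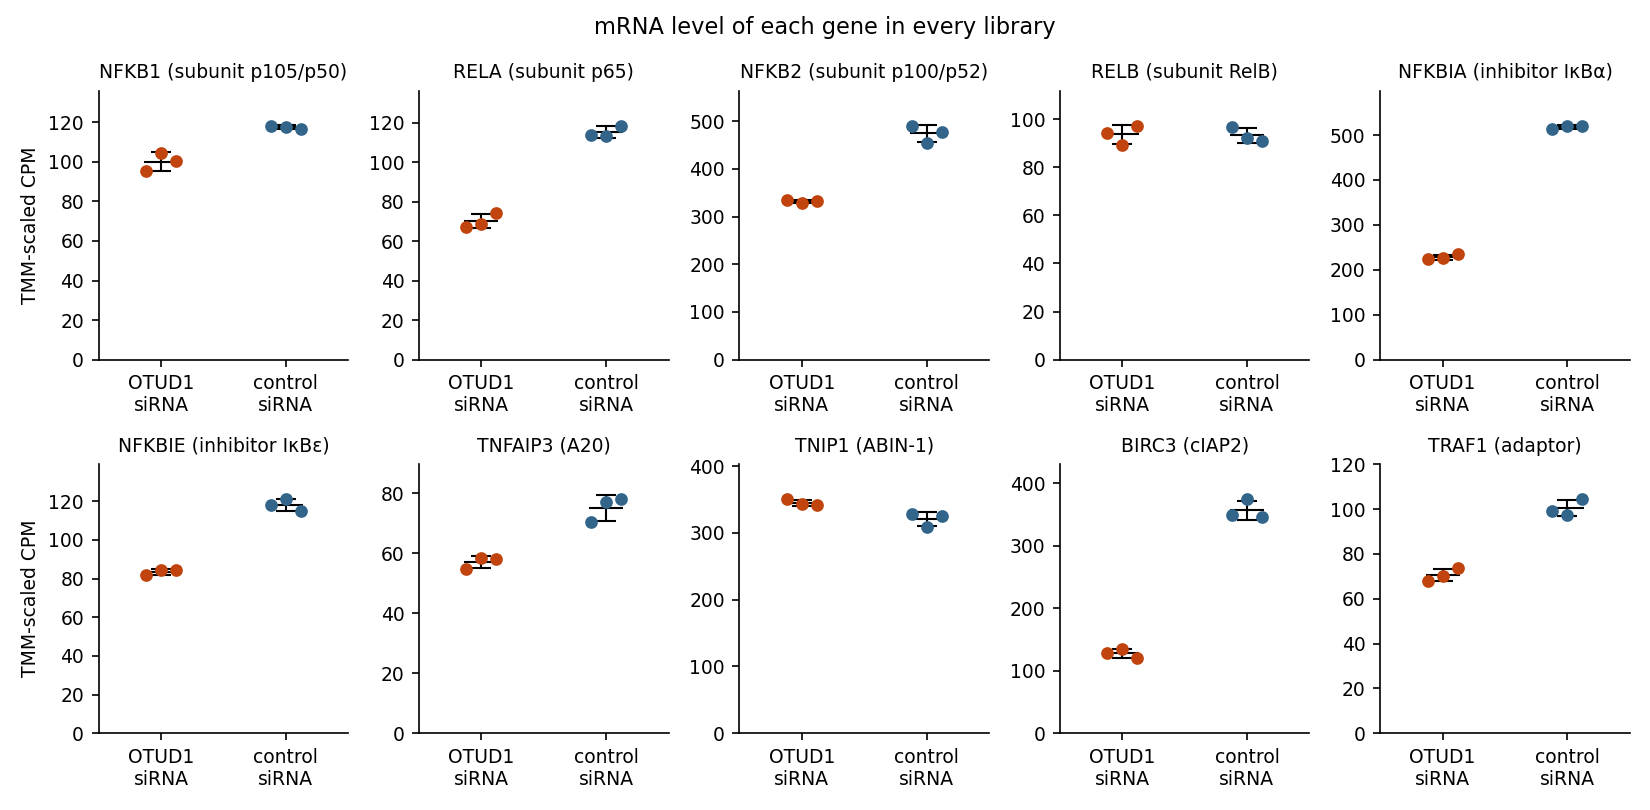
TMM-scaled CPM (y axis, from 0) of each gene in the 3 OTUD1 siRNA libraries (orange) and the 3 control siRNA libraries (blue), with mean and SD as black lines. NFKBIA sits at 223 to 234 CPM after OTUD1 siRNA, against 513 to 521 CPM in control libraries, whereas the RELB points of the groups share a range.

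Among the subunits, RELA fell the most. It encodes p65, the subunit with the transactivation domain of the canonical dimer (ENSG00000173039.18; hg38 chromosome 11, 65653596 to 65663094, minus strand). RELA was at 67.2, 68.8 and 74.2 CPM in OTUD1 siRNA libraries 1 to 3, against 114, 113 and 118 CPM in control libraries 1 to 3. Every OTUD1 siRNA library lay well below every control library. The means were 70.1 ± 3.64 and 115 ± 2.86 CPM (SD, n = 3 each), 1.65-fold lower, with an edgeR log2 fold change of -0.72 ± 0.045 SE (adjusted p = 4.34e-14).

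NFKB1, which encodes the precursor p105 and its product p50 (ENSG00000109320.11; chromosome 4, 102501329 to 102617302, plus strand), fell least of the called subunits. Its values were 95.2, 104.6 and 100.4 CPM after OTUD1 siRNA, against 118, 118 and 117 CPM with control siRNA. The OTUD1 siRNA libraries were lower without overlap and were spread more widely than the controls. NFKB1 fell 1.18-fold (edgeR log2 fold change -0.23 ± 0.042 SE, adjusted p = 2.25e-05). The value was -0.10 with library totals, -0.14 with upper-quartile factors and -0.13 after quantile normalization, called in each.

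The non-canonical subunits differed from each other. NFKB2, the gene of p100 and p52 (ENSG00000077150.18; chromosome 10, 102394110 to 102402529, plus strand), was at 334, 328 and 332 CPM after OTUD1 siRNA, against 491, 454 and 478 CPM in controls. The groups stood apart, and NFKB2 fell 1.43-fold (edgeR log2 fold change -0.52 ± 0.032 SE, adjusted p = 2.71e-14; -0.31 after quantile normalization). RELB, the partner of p52 (ENSG00000104856.13; chromosome 19, 45001430 to 45038198, plus strand), was at 94.4, 89.2 and 97.3 CPM in OTUD1 siRNA libraries, against 96.8, 92.1 and 90.9 CPM in control libraries. These RELB values overlapped, with a log2 fold change of 0.01 and a 95% interval of -0.09 to 0.10 (edgeR adjusted p = 0.929). With library totals, which raised the median of all genes by 0.13, RELB had a log2 fold change of 0.13 and was called higher (adjusted p = 0.0104). Over the RELB alternatives the adjusted p ran from 0.0104 to 0.985.

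The inhibitor genes NFKBIA and NFKBIE fell, NFKBIA further than NFKBIE, whereas NFKBIB, the gene of the related inhibitor IκBβ, rose (values are given with the rest of the pathway). NFKBIA encodes IκBα, the inhibitor that is resynthesised fastest after NF-kB activation (ENSG00000100906.10; chromosome 14, 35401511 to 35404749, minus strand). It was at 223, 226 and 234 CPM in OTUD1 siRNA libraries, against 513, 520.0 and 521 CPM in control libraries. The gap between the groups was many times the spread inside either of them. The means were 228 ± 5.81 and 518 ± 4.45 CPM, a 2.28-fold fall (edgeR log2 fold change -1.19 ± 0.031 SE, adjusted p = 7.82e-23).

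NFKBIE encodes IκBε, a slower-acting inhibitor (ENSG00000146232.16; chromosome 6, 44258166 to 44265788, minus strand). It ranged from 81.8 to 84.6 CPM after OTUD1 siRNA, against 115 to 121 CPM with control siRNA, without overlap. NFKBIE fell 1.41-fold (edgeR log2 fold change -0.50 ± 0.042 SE, adjusted p = 1.97e-11). Within each library, NFKBIA had 2.67 to 2.77 counts per NFKBIE count after OTUD1 siRNA and 4.29 to 4.53 in controls, a log2 difference of -0.69 that needs no scaling between libraries (exact permutation p = 0.1, two-sided).

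The partners TNFAIP3 and TNIP1 moved in opposite directions. TNFAIP3 encodes A20, a ubiquitin-editing enzyme of the OTU family that ends NF-kB signalling (ENSG00000118503.14; chromosome 6, 137867188 to 137883312, plus strand). It was at 54.8, 58.3 and 58.1 CPM after OTUD1 siRNA, against 70.3, 77.0 and 78.1 CPM in controls. TNFAIP3 fell 1.32-fold, with all OTUD1 siRNA libraries below all controls (edgeR log2 fold change -0.40 ± 0.051 SE, adjusted p = 1.08e-07).

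TNIP1 encodes ABIN-1, the ubiquitin-binding protein that recruits A20 to its targets (ENSG00000145901.15; chromosome 5, 151029945 to 151093577, minus strand). It was at 350.5, 342 and 342 CPM in OTUD1 siRNA libraries, against 328, 309 and 325 CPM in control libraries. The groups did not overlap, but the gap was narrow. TNIP1 rose 1.08-fold (edgeR log2 fold change 0.11 ± 0.032 SE, adjusted p = 0.00528). The TNIP1 rise was larger with library totals (0.24), upper-quartile factors (0.20) and quantile normalization (0.29), and its adjusted p reached 0.0419 when 1 library was left out. The ratio of TNIP1 to TNFAIP3 counts was 5.87 to 6.40 after OTUD1 siRNA and 4.01 to 4.66 in controls (log2 difference 0.50, exact permutation p = 0.1).

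BIRC3 had the largest change of the 10 genes. It encodes cIAP2, a ubiquitin ligase of the TNF receptor complex that blocks cell death and holds NIK low (ENSG00000023445.13; chromosome 11, 102317450 to 102339403, plus strand). BIRC3 was at 128, 135 and 119.9 CPM after OTUD1 siRNA, against 349.8, 375 and 345 CPM with control siRNA. No OTUD1 siRNA library came near the controls. The means were 128 ± 7.75 and 357 ± 15.7 CPM, a 2.79-fold fall (edgeR log2 fold change -1.48 ± 0.041 SE, adjusted p = 2e-22). In size, the fall ranked 124 among the 15244 tested genes ordered from the lowest log2 fold change, and that of NFKBIA ranked 312.

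TRAF1 encodes an adaptor that joins cIAP2 and TRAF2 at TNF-family receptors (ENSG00000056558.10; chromosome 9, 120902393 to 120929173, minus strand). It ranged from 68.1 to 73.5 CPM in OTUD1 siRNA libraries, against 97.5 to 104 CPM in control libraries. TRAF1 fell 1.42-fold without overlap between the groups (edgeR log2 fold change -0.51 ± 0.046 SE, adjusted p = 1.09e-10).

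**Figure D3:**
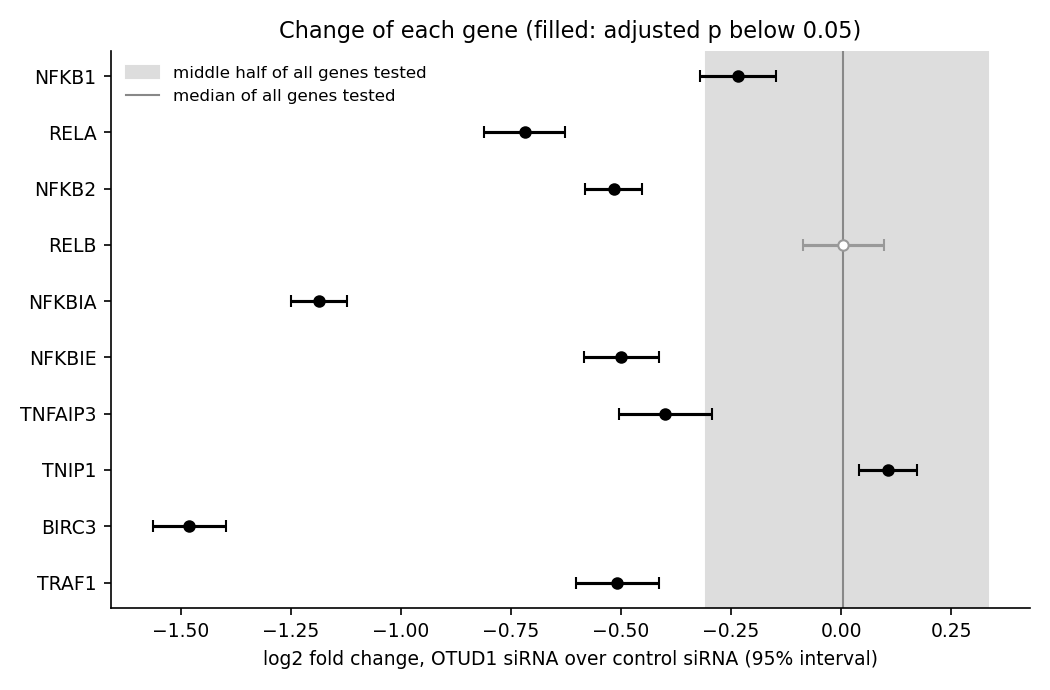
Log2 fold change of each gene with its 95% interval (x axis), filled where adjusted p was below 0.05; the grey band spans the interquartile range of all tested genes, -0.31 to 0.33. BIRC3 and NFKBIA lie farthest to the left, and RELB and TNIP1 lie inside the band together with NFKB1.

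Per length, NFKBIA, NFKB2 and TNIP1 kept their order between the groups, while the ranks below them changed. In CPM per kilobase of annotated exon (GENCODE 29), NFKBIA was highest in both groups, at 95.95 after OTUD1 siRNA and 218 in controls, followed by NFKB2 at 73.9 and 106 and by TNIP1 at 59.5 and 55.3. BIRC3 had rank 6 after OTUD1 siRNA, at 16.97, and rank 4 in controls, at 47.4. RELA, at 12.8 and 21.1, was below NFKB1 after OTUD1 siRNA and above it in controls, where NFKB1 was at 18.8. The length used merges the exons of all annotated transcripts (RELA 5464 bases, NFKB1 6257) and can exceed that of the expressed mRNA. The order between genes, including that of RELA and NFKB1, therefore depends on this choice of length. TRAF1 and TNFAIP3 were lowest, at 10.95 and 11.3 after OTUD1 siRNA and 15.6 and 14.9 in controls. Some neighbours in this order could not be separated beyond the spread of their libraries: NFKBIE with RELB, BIRC3 with NFKB1 and TNFAIP3 with TRAF1 after OTUD1 siRNA, and BIRC3 with NFKBIE and TRAF1 with TNFAIP3 in controls.

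Counts of 2 genes from the same library give ratios in which scaling between libraries cancels. Relative to RELA, NFKBIA was at 3.16 to 3.32 counts per RELA count after OTUD1 siRNA, against 4.40 to 4.59 in controls (log2 difference -0.47), and BIRC3 was at 1.62 to 1.97, against 2.91 to 3.31 (-0.76). The other 7 genes were higher relative to RELA, but NFKB2 (-0.28), NFKBIE (-0.27), TNFAIP3 (-0.16) and TRAF1 (-0.27) were lower relative to NFKB1. TNIP1 was at 4.61 to 5.21 per RELA count, against 2.73 to 2.88 (0.82), and RELB was at 1.30 to 1.40, against 0.767 to 0.851 (0.72). NFKB1 was at 1.35 to 1.52 per RELA count in OTUD1 siRNA libraries, against 0.986 to 1.04 in control libraries (0.48). The subunit and inhibitor mRNAs thus changed unequally. Relative to NFKB1, NFKBIA was at 2.16 to 2.34 counts after OTUD1 siRNA, against 4.33 to 4.46 in controls (-0.95). For all 15 pairs compared the groups did not overlap. Each exact permutation p was 0.1, as was its value adjusted over the 15 pairs, and 0.1 is the smallest that 3 against 3 libraries can give. The share of pairs without overlap over all genes was not counted, while 64.5% of single tested genes did not overlap. Each of the other genes was paired with RELA, which itself fell, so the 15 pairs are not separate results.

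**Figure D4:**
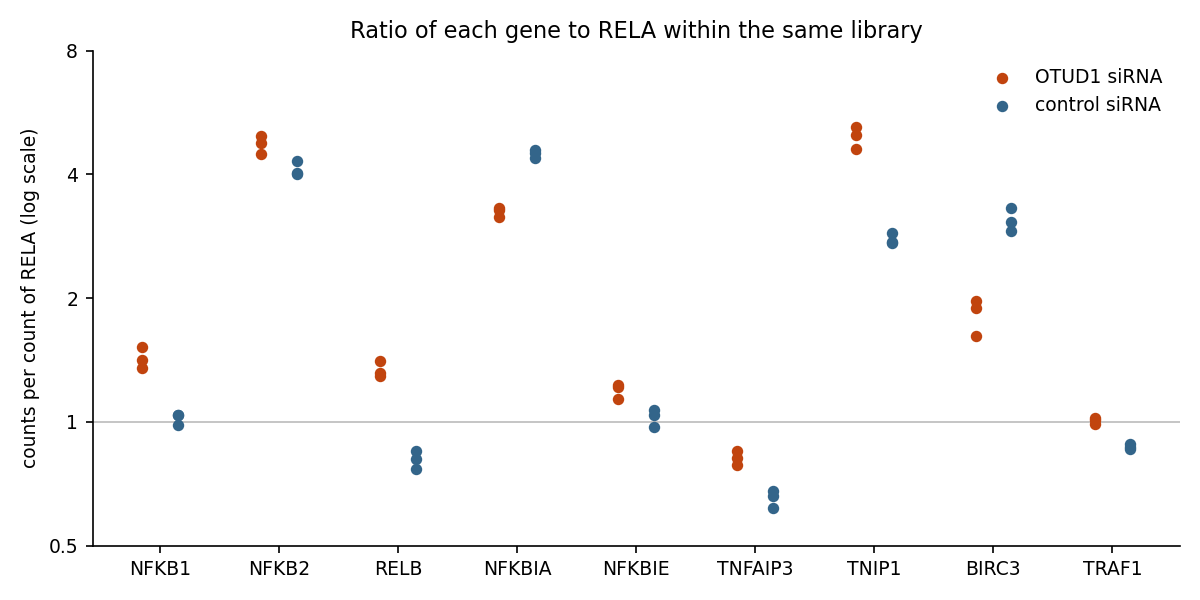
Counts of each gene per count of RELA in the same library (log scale), for the 3 OTUD1 siRNA (orange, left of each pair) and 3 control siRNA libraries (blue). NFKBIA and BIRC3 are lower relative to RELA after OTUD1 siRNA and the other 7 genes are higher, of which NFKB2, NFKBIE, TNFAIP3 and TRAF1 are lower where NFKB1 is the denominator.

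The rest of the pathway was described from 6 lists by role. Among receptors and ligands, 16 of 21 had enough counts to be tested; 6 of them fell and 2 rose, with a median log2 fold change of -0.07. The balance turned with library totals, to 4 lower and 5 higher, and was 5 lower and 4 higher with upper-quartile factors. TNF, the ligand that starts canonical signalling, was at 2.78, 2.88 and 3.56 CPM in OTUD1 siRNA libraries, against 16.4, 13.1 and 14.1 CPM in control libraries. That 4.73-fold fall was the largest of this list (edgeR log2 fold change -2.24 ± 0.14 SE, adjusted p = 1.71e-14). IL1RAP, the shared accessory chain of interleukin-1 receptors, fell 1.93-fold and the costimulatory receptor CD40 1.31-fold. LTBR, the lymphotoxin receptor that feeds the non-canonical route, rose 1.20-fold and TNFSF12, the gene of the cytokine TWEAK, 1.19-fold. TLR1, TLR5, IL1A, IL1B and LTA were not tested because of low counts.

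Of 16 adaptors and ubiquitin ligases tested, 2 fell, 4 rose and 10 were not called, and the median was -0.01. TRADD, the adaptor of the TNF receptor, was at 71.5, 66.1 and 69.8 CPM after OTUD1 siRNA, against 52.7, 45.0 and 51.1 CPM in controls, and rose 1.40-fold. RBCK1 (HOIL-1), a subunit of the linear ubiquitin ligase, rose 1.22-fold, and the kinase IRAK1 of the interleukin-1 receptor complex 1.07-fold. BIRC2 (cIAP1), the close relative of BIRC3, fell 1.29-fold and TRAF3, which binds NIK, 1.10-fold. The values of TRAF3 overlapped between the groups.

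Of 12 kinases and their partners, 7 fell and 1 rose (median -0.23). MAP3K14 (NIK) was at 43.4, 44.6 and 45.4 CPM in OTUD1 siRNA libraries, against 104.6, 103 and 99.0 CPM in control libraries. It fell 2.30-fold (edgeR log2 fold change -1.20 ± 0.048 SE, adjusted p = 1.04e-18), close to the change of NFKBIA. TAB2, which tethers the kinase TAK1 to ubiquitin chains, fell 1.40-fold, TANK 1.35-fold and the IκB kinase subunit IKBKB 1.26-fold. TAB1, the activator of TAK1, rose 1.33-fold.

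The remaining IκB family and subunit list had 2 falls and 1 rise among 7 genes (median 0.01). The balance turned to 1 lower and 4 higher with library totals, and to 1 lower and 2 higher with upper-quartile factors or quantile normalization. NFKBID, a nuclear IκB, fell 1.62-fold. IKBIP, which encodes a protein that binds the kinase IKBKB and is itself no IκB or subunit, fell 1.12-fold, while NFKBIB (IκBβ) rose 1.36-fold, at 43.3, 45.3 and 39.8 CPM after OTUD1 siRNA against 33.4, 31.3 and 29.7 CPM in controls. NFKBIB therefore moved against NFKBIA and NFKBIE. Other feedback regulators fell in 6 cases and rose in 1 of 12 (median -0.17). CYLD, a deubiquitinase that removes the chains built at receptors, fell 1.92-fold, OTULIN, which removes linear chains, 1.62-fold, OTUD7B 1.51-fold and PDLIM2, which ends the activity of nuclear RelA, 1.22-fold. TAX1BP1, a partner of A20, rose 1.11-fold.

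Of 22 output genes, 15 fell and 5 rose, with a median of -0.60. PLAU, the urokinase gene, was at 599 to 605 CPM after OTUD1 siRNA, against 1922 to 1977 CPM in controls, a 3.25-fold fall. The chemokine gene CCL2 fell 3.26-fold, the transcription factor gene IRF1 2.82-fold and TNFAIP2 2.46-fold. IER3, an immediate-early survival gene, rose 1.45-fold and the chemokine gene CXCL2 1.38-fold. BMP2, singled out after its values were seen, had the lowest fitted log2 fold change, -3.05, from 3, 0 and 2 counts after OTUD1 siRNA against 11, 16 and 11 in controls, which is near the floor of 3 counts (95% interval -4.35 to -1.76). The next lowest, VCAM1, likewise named after its values were seen, was at -1.90. The lists share genes with other pathways, and their counts are to be read against the 31.1% of all tested genes that were lower and the 29.3% that were higher.

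**Figure D5:**
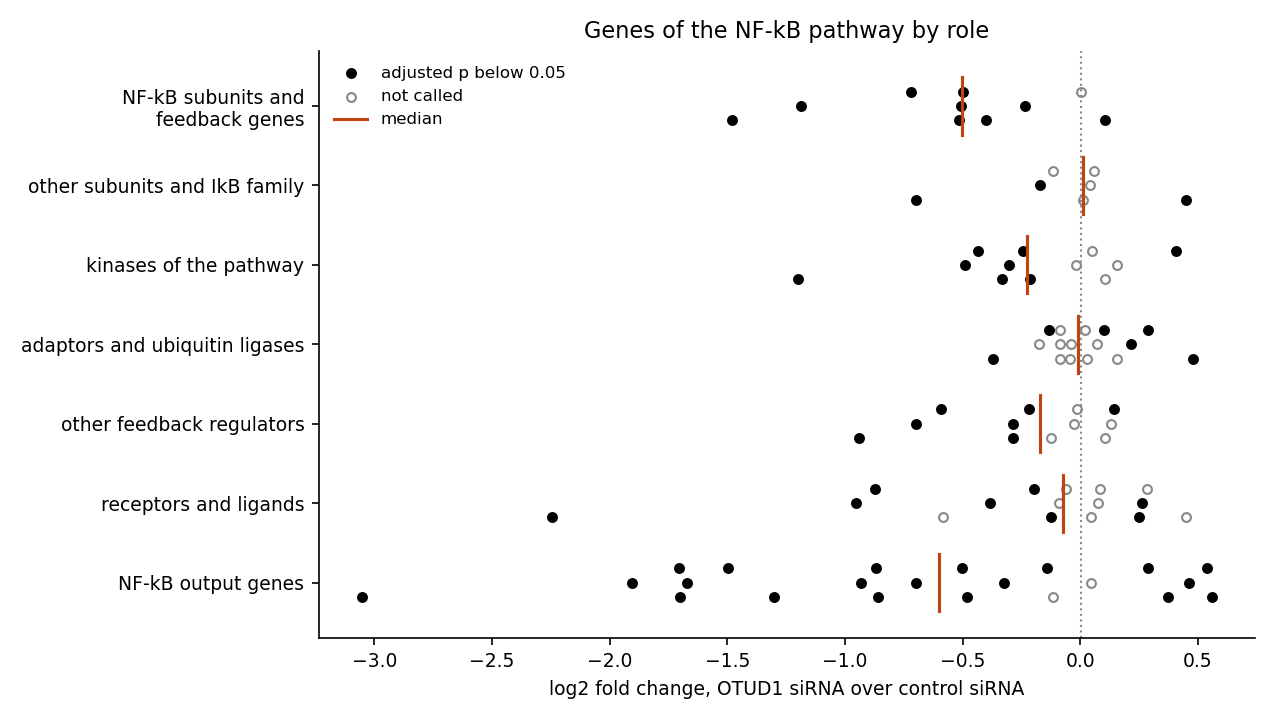
Log2 fold change of each tested gene by role (x axis; black, adjusted p below 0.05; open, not called; orange line, median of the list; dotted line, median of all genes tested). TNF at -2.24 lies farthest to the left among receptors and ligands, and the output genes spread from -3.05 to 0.56, where the low end is BMP2 alone.

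Over the 6 libraries, the genes whose mean-centred log2 CPM lay closest to that of BIRC3, among 10502 other protein-coding genes with a mean of at least 5 CPM, were MAMDC2, KIF23 and YWHAZ. Their log2 fold changes were -1.46, -1.46 and -1.45 (BIRC3 -1.48). With only 2 groups, this measure mainly finds genes of equal fold change.

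A pair of 3′ UTR 7-mers was taken from earlier results on these libraries and searched in 12425 genes. As the 7-mers came from the same libraries, lower medians among their carriers are no independent result and are given as description only. The first, CAAACAA, was in the 3′ UTR of 14% of the genes and of none of the 10 NF-kB genes. The median log2 fold change was -0.24 for carriers and 0.00 for the rest, and the median 3′ UTR was 2973 bases for carriers and 933 for the rest. The other 7-mer, AAACAAA, was in 29.9% of the genes and in 1 of the 10, BIRC3, with medians of -0.18 for carriers and 0.02 for the rest. Its carriers likewise had longer 3′ UTRs, with a median of 2667 bases against 746. Tested genes with a kB match in a listed window had a median of -0.03 on the log2 scale and those without one -0.01. Among the NF-kB genes with a listed start, the 6 with a match had a median of -0.46, and RELA and TRAF1, without one, -0.61. The part of these sequences in the results was not tested. RELA and TNFAIP3 each share exon bases, 9 and 95, with a gene on the opposite strand, whose counts summed to 175 and 48 over the OTUD1 siRNA libraries and 146 and 58 over the controls. The strand setting of the counting is not known, so reads of such overlapping stretches cannot be told apart.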

How the data were processed

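RNA-seq counts came from 6 libraries, 3 per group. Per the labels' protocols, Trizol RNA went into NEBNext Ultra Directional libraries, and per the submitters' processing notes the build is hg38; the sources used here give no aligner, counter or strand setting. The deposited table's name speaks of FPKM, but its values are whole-number counts with unequal totals, and they were treated as raw counts made by the authors. All 58735 rows carry a name.

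Genes were kept by filterByExpr (10 counts at the median library size, 15 in all), scaled by TMM and fitted with edgeR 4.0.16 in R 4.3.3, two-sided, with Benjamini-Hochberg adjustment over 15244 genes and a threshold of 0.05. SEs came from the fold change and F. Counts were simulated for OTUD1 siRNA against control siRNA (15056 genes) with 1 common dispersion. Of 98 genes changed by 0.5 and 96 changed by 1 on the log2 scale, 75.5% and 95.8% were recovered, with 6 false calls. In the real data 60.4% of genes were called, a far larger share than was changed here. The simulated recovery and false calls therefore do not carry over to them. A count of 3 equals 0.137 to 0.188 CPM, which covers counting error only. No libraries were duplicates: chi-square averaged 2.06 to 3.78 a gene within groups and 47.5 to 56.1 across them.

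The 10 genes and the lists were chosen with earlier results of these data known. Named from each list were at most 4 called genes, by adjusted p, and at most 2 called against the list's main direction. Alternatives covered the filter, scaling, tool (DESeq2 1.42.0, limma 3.58.1), replicate block and each library left out. The 3′ UTRs searched had at least 50 bases in an annotated principal transcript (GENCODE 29; Python 3.11.15).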

Additional observations from a re-analysis of the deposited data

How the results depend on the processing

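Over 15 alternatives the 8 genes that fell and TNIP1 kept their direction and their call. RELB had a log2 fold change of -0.003672 without a filter on low counts and of 0.13, called higher, with library totals, which made 2 genes called higher in place of 1; leaving out 1 library gave RELB -0.0218 to 0.0385. Library totals and upper-quartile factors raised the median of all genes by 0.129 and 0.0932, and of all calls 64.2% and 59.8% were then higher, against 48.4%. For other subunits and the IκB family, the 2 lower and 1 higher became 1 and 4 with library totals, 1 and 2 with upper-quartile factors or quantile normalization, and 2 higher at a mean of at least 5 CPM. The kinases rising numbered 3 with library totals, 2 with upper-quartile factors, quantile normalization or the 5 CPM minimum, and 1 to 2 with a library left out. Adaptors falling numbered 1 with library totals, upper-quartile factors, quantile normalization, DESeq2 or the 5 CPM minimum, and 1 to 2 with a library left out; those rising numbered 7 with library totals and 2 to 4 with a library left out. Other feedback regulators rising numbered 3 with library totals and 2 with upper-quartile factors, against 1, while 5 and 6 fell, against 6. Receptors and ligands, 6 lower and 2 higher, became 4 and 5 with library totals and 5 and 4 with upper-quartile factors. The cause of these moves was not tested.

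With NFKB1 in place of RELA as denominator, log2 ratio differences were -0.28 for NFKB2, -0.27 for NFKBIE, -0.16 for TNFAIP3 and -0.27 for TRAF1, which reversed, and 0.24 for RELB, -0.95 for NFKBIA, 0.34 for TNIP1 and -1.25 for BIRC3. No pairing by replicate number was seen: correlations of same-numbered deviations were -0.00949, 0.0477 and -0.00848, and replicate 2 alone correlated best with its own number. With so few libraries per group, these correlations cannot decide whether same-numbered libraries shared a batch. With the replicate block, 4791 genes were lower and 4484 higher, and none of the 10 genes changed its call. OTUD1 was not tested at the 5 CPM minimum.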
